A study of Rattus norvegicus with 42 samples.

Results

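The growth hormone and IGF axis was followed through 10 genes, Ghr, Igf1, Igfals, Igfbp1, Igfbp2, Igfbp3, Igfbp4, Socs2, Socs3 and Cish, in rat liver given corticosterone (CORT) in pulses or at a constant rate. The genes were found by name in the table of elongating RNA polymerase II, where they held 26 of 60999 coding regions at 15 distinct positions, among 26426 genes. Their Ensembl identifiers located 9 of them among the 22929 genes of the RNA count table, and Socs3 RNA is not analysed here. Glucocorticoid receptor (GR) regions were taken where their centre lay within 50 kb of the transcription start site (TSS) of one of the genes, which gave 25 of 3981 regions.

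All rats were adrenalectomised male Sprague Dawley rats, infused intravenously until collection at 140 or 180 min, so that neither the VEH nor the CORT groups had adrenal CORT of their own. Pulsatile (PULS) rats received CORT for 20 min in each hour, whereas constant (CONS) rats received a matched dose without breaks, which the study's methods describe as faster in the first minutes and at 1 rate from then on. ChIP-Seq groups were PEAK_140 and NADIR_180 (the peak of the last pulse at 140 min and the trough at 180 min), CONS_140 and CONS_180 at the same times, and VEH, which pooled a pulsatile vehicle library of 140 min with one of 180 min, with 2 libraries each and 6 rats in a library. The ChIP-Seq VEH libraries carry no replicate number. Here VEH replicate 1 is that of 140 min and VEH replicate 2 that of 180 min, so a fit without 1 of them also changes the time of the control. RNA-Seq groups were PULS CORT, PULS VEH, CONS CORT and CONS VEH, all at 180 min, with 3 libraries each. Depth was 2051977 to 6715803 tags for GR, 4938473 to 9326927 for polymerase and 3956379 to 7777219 reads for RNA. Hepatocyte markers summed to between 94782 and 139746 CPM (reads of a gene scaled to a common library size) in the 12 RNA libraries and cholangiocyte markers to between 8.31 and 15.8 CPM.

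Growth hormone binds its receptor GHR on hepatocytes, which activates the kinase JAK2 and, through it, the transcription factor STAT5. STAT5 drives the genes for the hormone IGF1 and for IGFALS, the acid-labile subunit that keeps IGF1 in the circulation, and also those for SOCS2 and CISH, which feed back on the receptor. The IGF-binding proteins carry IGF1 and set how much of it is free. IGFBP1 is known as an acutely regulated liver protein that rises in fasting and with glucocorticoid, and SOCS3 is a further feedback inhibitor of cytokine receptors.

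STAT5 binds the palindrome TTCNNNGAA, and this motif was searched because the GR data below include a region at the Cish start. The RefSeq promoter of Cish (GRCr8, chr8:116850719-116851018, plus strand, 250 bases before to 50 after the start) is shown with each TTCNNNGAA in capitals, the motif being its own reverse complement.
Cish promoter: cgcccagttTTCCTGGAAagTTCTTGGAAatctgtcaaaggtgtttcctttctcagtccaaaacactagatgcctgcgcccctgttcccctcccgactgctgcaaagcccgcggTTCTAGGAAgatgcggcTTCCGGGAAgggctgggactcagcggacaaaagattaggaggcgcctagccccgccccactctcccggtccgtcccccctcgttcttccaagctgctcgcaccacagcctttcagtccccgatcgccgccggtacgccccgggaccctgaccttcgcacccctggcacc
It holds 4 matches, at -241, -230, -136 and -119 from the start. Of 33469 promoters of 300 bases, 8.87% hold at least 1 match and 2 hold at least 4. The other 8 members with a promoter in the table hold none, and Socs2 is not in the table. The motifs ACANNNTGT and AGAACA were searched in the same promoters. No member held ACANNNTGT. AGAACA was found, as its reverse complement, once in Ghr (from -93) and once in Igf1 (from -55), and 20.7% of all promoters hold at least 1. The words that the study's motif table lists for the GR region at the Cish start (rn6, chr8:116053994-116054722) were the following.
Word a: TTCCTGGAAagt
Word b: TTCTTGGAAatc
Word c: TTCTAGGAAgat
Word d: TTCCGGGAAggg
All 4 words occur in the promoter above. This GR region spans the Cish start, so the words and the promoter come from overlapping DNA and are not separate evidence. Of the 25 GR regions, 10 are in the part of the motif table used here, and TTCNNNGAA words are listed under 1 region of Igfals, 1 of Igfbp1, 1 of Socs2 and 2 of Cish.
Igfals, 857 b before the TSS: TTCTCAGAAaag
Socs2, 14859 b before the TSS: TTCCAAGAAcaa
Igfbp4, 3204 b after the TSS, where this word is listed under the GR element (capitals mark the core of the word): gggACAGGGAGT
A match is a description of the letters and not of a bound factor.

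Among the receptor and hormone genes, Ghr RNA fell in both patterns, and Igf1 RNA passed no test. Ghr RNA was at 2681, 2059 and 1825 CPM in PULS VEH and at 907.9, 958.5 and 1046 CPM in PULS CORT. It was at 2139, 1659 and 1972 CPM in CONS VEH and at 886, 1027 and 940 CPM in CONS CORT. All 6 CORT libraries lay below all 6 VEH libraries, and the means (± SD, n = 3) were 971 ± 70.0 against 2188 ± 443 CPM in PULS and 951 ± 70.9 against 1923 ± 244 CPM in CONS. Ghr fell 2.25-fold in PULS (log2 fold change -1.17, SE 0.15, edgeR quasi-likelihood test, adjusted p = 0.000217) and 2.02-fold in CONS (-1.02, SE 0.15, adjusted p = 0.000221). The responses differed by 0.16 (SE 0.21, adjusted p = 0.813). The study's methods describe counts over exons. In bulk liver, fewer cells of a type and less RNA per cell cannot be told apart. Hepatocyte markers summed to 120840 to 139746 CPM in PULS CORT and 126067 to 131348 CPM in PULS VEH. In CONS they summed to 121264 to 130717 CPM in CORT and 94782 to 134348 CPM in VEH. The summed CPM of 6 stellate cell markers was 181 to 225 in the CORT libraries and 245 to 301 in the VEH libraries, with 1 of 6 lowered (Pdgfrb) and 1 raised (Rgs5) in CONS. The part of cell composition in the results was not tested. The labels do not say that the 3 RNA libraries of a group came from separate rats, so the p-values measure the spread between these samples, which may be technical.

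Igf1 RNA, which encodes the hormone itself, was at 520, 1543 and 694 CPM in PULS VEH and at 655, 919 and 598 CPM in PULS CORT. In CONS it was at 566, 470 and 619 CPM in VEH and at 500.0, 774.5 and 715 CPM in CORT. The groups overlapped in both patterns, and the second PULS VEH library was the highest of the 12. The log2 fold change was -0.34 (SE 0.30, adjusted p = 0.576) in PULS, where it was 0.26, of opposite sign, without that library, and 0.26 (SE 0.30, adjusted p = 0.644) in CONS.

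Igfals RNA fell in CONS and did not pass the test in PULS. It was at 19.6, 21.0 and 17.0 CPM in PULS VEH, 16.4, 18.1 and 24.1 CPM in PULS CORT, 16.2, 19.4 and 23.2 CPM in CONS VEH and 7.31, 6.62 and 9.13 CPM in CONS CORT. Each CONS CORT library lay below the other 9 libraries. The fall in CONS was 2.54-fold (-1.35, SE 0.19, adjusted p = 0.000202), and the PULS value was 0.01 (SE 0.18, adjusted p = 0.977). Between the CORT groups, CONS was 2.53-fold lower than PULS (-1.34, SE 0.20, adjusted p = 0.004). The direct test of the difference between the responses gave -1.36 (SE 0.26, adjusted p = 0.0661), which missed the threshold.

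**Figure D1:**
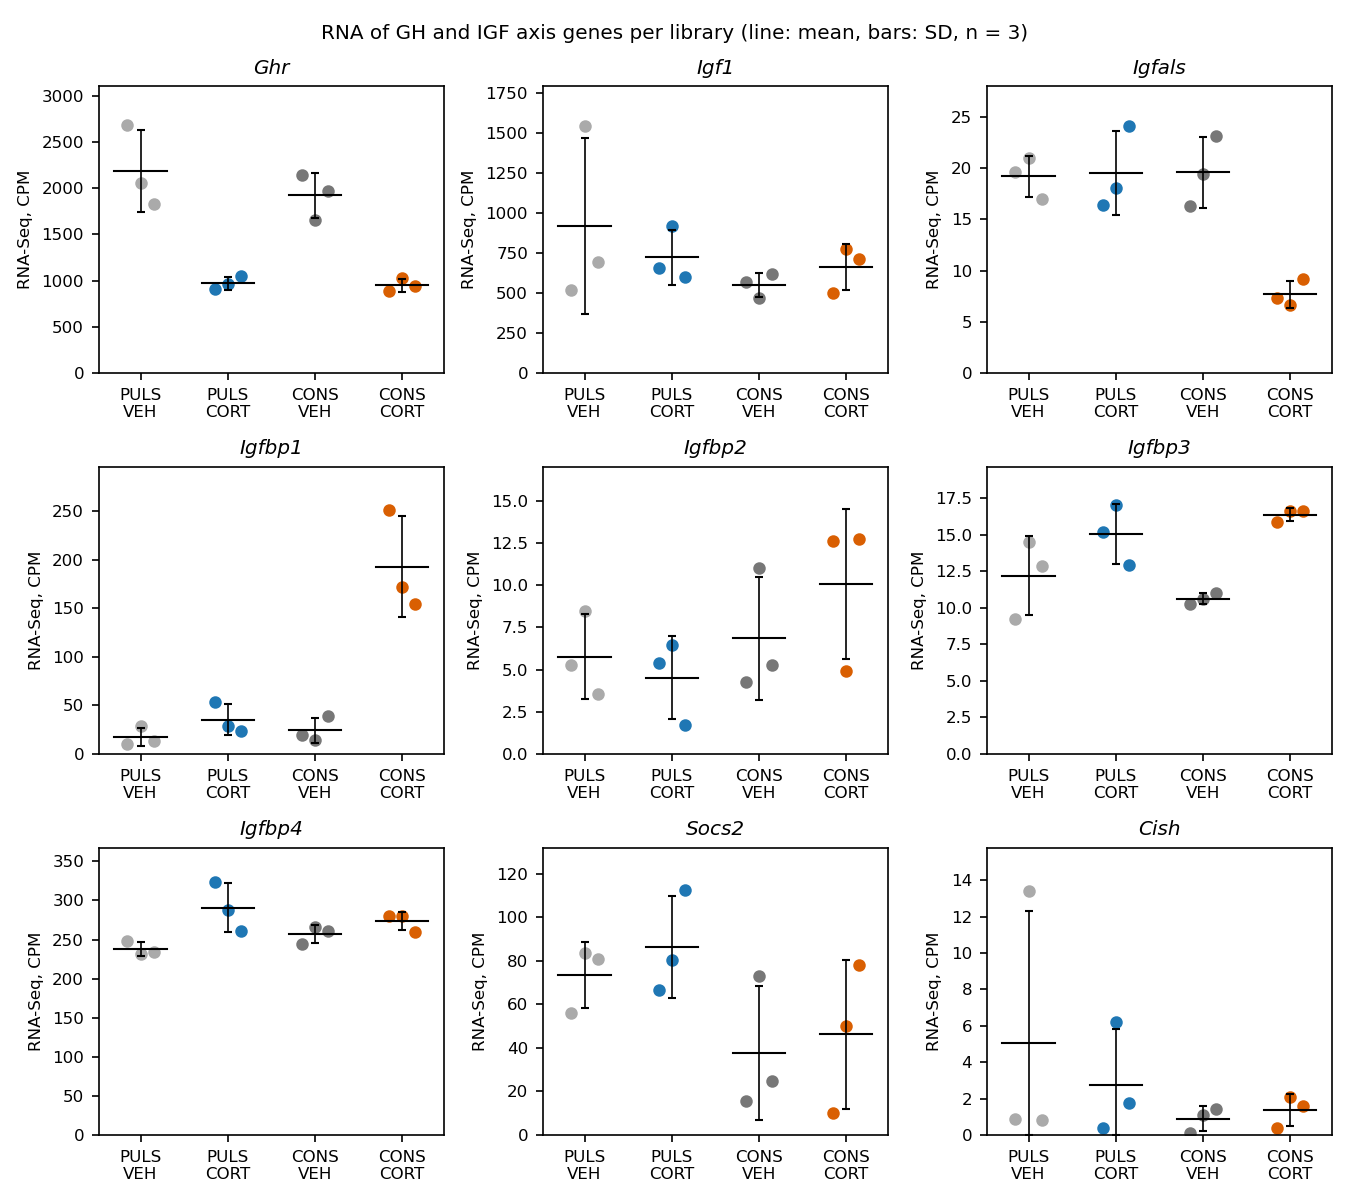
RNA-Seq level in CPM (vertical axis, from 0) of the 9 genes with counts, in the 4 groups on the horizontal axis. Points are libraries, the line is the mean and bars are the SD (n = 3), ended at 0 where they would pass it. The CONS CORT libraries of Igfbp1 lie at 154 to 251 CPM, above all other libraries, and those of Igfals at 6.62 to 9.13 CPM, below them.

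Of the binding proteins, Igfbp1 and Igfbp3 RNA rose in CONS. Igfbp1 RNA was at 10.7, 28.3 and 13.1 CPM in PULS VEH and at 53.9, 28.4 and 24.1 CPM in PULS CORT. In CONS it was at 19.3, 14.3 and 39.3 CPM in VEH and at 251, 172 and 154 CPM in CORT. The groups were separate in CONS and overlapped in PULS, where the second VEH library lay above the lowest CORT library. The rise was 7.90-fold in CONS (2.98, SE 0.37, adjusted p = 5.06e-05), and the PULS value was 1.05 (SE 0.40, adjusted p = 0.143). CONS CORT exceeded PULS CORT 5.36-fold (2.42, SE 0.36, adjusted p = 0.0044), while the difference between the responses was 1.94 (SE 0.54, adjusted p = 0.142). Without the filter on low counts, the differences between the responses passed for Igfals (adjusted p = 0.00555) and Igfbp1 (adjusted p = 0.0105), and Igfbp1 passed in PULS (adjusted p = 0.0283). Without PULS VEH replicate 2, Igfbp1 also passed in PULS (1.6, adjusted p = 0.0484), and without PULS CORT replicate 2 it did not pass between the CORT groups (adjusted p = 0.0536). The Igfals difference between the responses passed without PULS CORT replicate 1 (adjusted p = 0.0419) or CONS VEH replicate 1 (adjusted p = 0.0206).

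Igfbp3, the main carrier of IGF1 in blood, was at 10.3, 10.6 and 11.04 CPM in CONS VEH and at 15.8, 16.6 and 16.7 CPM in CONS CORT, without overlap, a rise of 1.54-fold (0.63, SE 0.17, adjusted p = 0.0209). Without CONS CORT replicate 2 or 3, or CONS VEH replicate 1, the adjusted p was 0.0577, 0.0597 or 0.0638. In PULS it was at 9.24, 14.5 and 12.9 CPM in VEH and at 15.2, 17.1 and 12.9 CPM in CORT, with overlap (0.31, SE 0.17, adjusted p = 0.35). Igfbp2, a further binding protein, ranged from 1.74 to 12.7 CPM over the 12 libraries (-0.34, adjusted p = 0.771 in PULS and 0.59, adjusted p = 0.427 in CONS). Igfbp4, which is held to restrain IGF1, ranged from 231 to 323 CPM (0.29, adjusted p = 0.137 in PULS and 0.09, adjusted p = 0.67 in CONS).

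The feedback genes passed no RNA test. Socs2 was at 56.2, 83.6 and 80.7 CPM in PULS VEH, 66.6, 80.1 and 112 CPM in PULS CORT, 15.4, 73.0 and 24.98 CPM in CONS VEH and 10.2, 50.3 and 78.3 CPM in CONS CORT, so that the libraries of a CONS group differed more from each other than the groups did. The log2 fold changes were 0.23 (SE 0.51, adjusted p = 0.858) in PULS and 0.35 (SE 0.53, adjusted p = 0.751) in CONS. Cish was near the limit of counting, with 1 to 71 reads in a library and 13.4 CPM in the second PULS VEH library against 6.18 CPM or less in the other 11. Its log2 fold changes were -0.94 (SE 0.90, adjusted p = 0.624) in PULS and 0.86 (SE 1.26, adjusted p = 0.738) in CONS.

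In all, 1 of the 9 members was called in PULS, against 4.23% of 14092 genes tested, and 4 in CONS, against 9.2%. Between the CORT groups 2 were called, against 0.887%, and in the direct test of the responses none, against 0.0284%. That test had 2 members, Igfals and Igfbp1, at an unadjusted p below 0.05, as had 1749 of all 14092 genes. DESeq2 called none of the 5 members to which it gave an adjusted p. Igfbp1 was among these, whereas Igfals was given none and so was not assessed by DESeq2. No member was called between the VEH groups by edgeR, against 0.0% of all genes, nor by DESeq2 among the 3 with an adjusted p. There 2 members (Igf1 and Cish) had an unadjusted p below 0.05 in edgeR, as had 1286 of all 14092 genes. The median log2 fold change of the members in CONS was 0.35, against -0.01 over all genes.

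**Figure D2:**
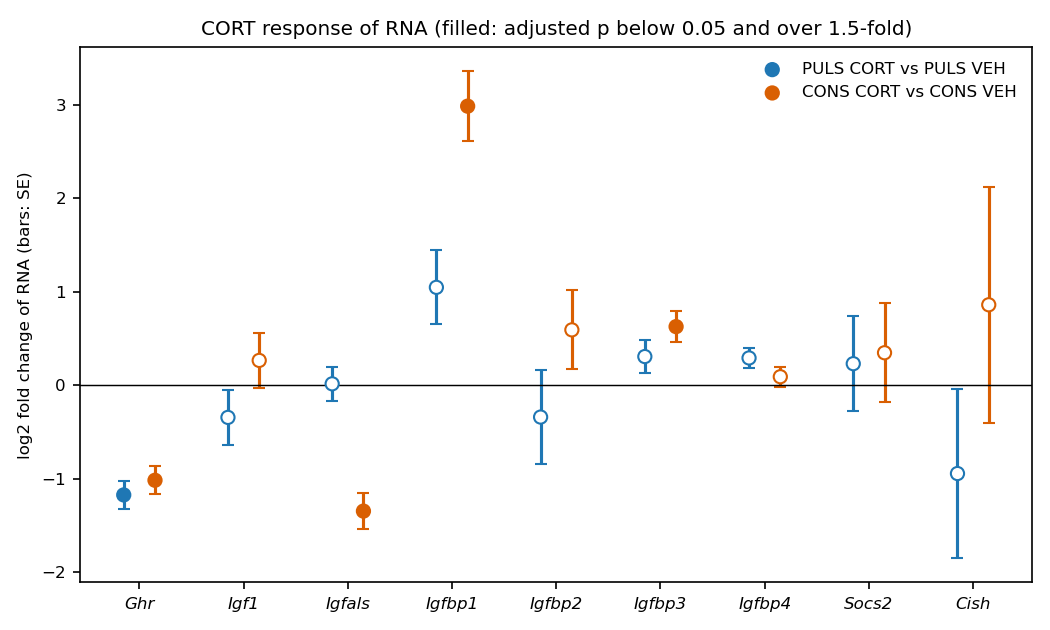
Log2 fold change of RNA, CORT against VEH, of the 9 genes (horizontal axis) in PULS (blue) and CONS (orange), with the SE as bars and filled points for calls. Ghr is filled in both patterns at -1.17 and -1.02. Igfals, Igfbp1 and Igfbp3 have a filled point in CONS, and the difference between the patterns did not pass the direct test.

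Polymerase phosphorylated at serine 2 (pSer2 Pol2), the elongating form, was measured as log2 tags over the first 10 kb of each gene or its whole length, and 1 region a gene was used, the one with the highest mean. At CONS_140, 3 of 10 members were called against VEH, compared with 0.791% of 16568 genes, namely Igf1 and Socs2, which were lower, and Igfbp1, which was higher. Igf1 was at 10.63 and 10.42 in VEH, 9.94 and 10.28 at PEAK_140, 8.99 and 8.23 at NADIR_180, 8.39 and 8.08 at CONS_140 and 9.83 and 9.59 at CONS_180. Both CONS_140 libraries and the second NADIR_180 library were the lowest. Igf1 pSer2 Pol2 fell at CONS_140 (-2.30, SE 0.33, limma, adjusted p = 0.00772), while NADIR_180 gave -1.92 (adjusted p = 0.412), PEAK_140 -0.42 (adjusted p = 0.999) and CONS_180 -0.82 (adjusted p = 0.999). The 3 positions of Igf1 regions overlap, so they are not separate measurements.

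Socs2 was at 8.06 and 7.43 in VEH, 8.00 and 7.15 at PEAK_140, 7.28 and 6.05 at NADIR_180, 4.88 and 2.63 at CONS_140 and 8.31 and 7.27 at CONS_180. Both CONS_140 libraries lay below the other 8. At CONS_140 it fell by 3.99 on the log2 scale (SE 0.69, adjusted p = 0.0217). Cish was at 8.26 and 7.72 in VEH, 9.06 and 8.85 at PEAK_140, 7.91 and 7.17 at NADIR_180, 6.44 and 2.62 at CONS_140 and 8.94 and 8.02 at CONS_180. The CONS_140 libraries were again the lowest, and also differed most from each other, and the value of -3.46 (SE 0.90, adjusted p = 0.18) did not pass.

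Igfbp1 pSer2 Pol2 went the other way. It was at 9.94 and 9.71 in VEH, 11.01 and 11.10 at PEAK_140, 9.33 and 9.93 at NADIR_180, 11.53 and 11.32 at CONS_140 and 10.59 and 10.59 at CONS_180. The PEAK_140, CONS_140 and CONS_180 libraries all lay above the VEH and NADIR_180 libraries. It rose at CONS_140 (1.6, SE 0.27, adjusted p = 0.0198), whereas PEAK_140 gave 1.23 (SE 0.27, adjusted p = 0.0734), CONS_180 0.77 (adjusted p = 0.918) and NADIR_180 -0.19 (adjusted p = 1.0).

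The calls at CONS_140 depended on the libraries in the fit, and that of Socs2 also on the variance trend. Of the 10 fits without 1 library, the call was lost in 4 for Igf1, 7 for Igfbp1 and 9 for Socs2. Without VEH replicate 1 the adjusted p was 0.0795 for Igf1, 0.0857 for Igfbp1 and 0.222 for Socs2, and without VEH replicate 2 it was 0.0624, 0.134 and 0.136. Without CONS_140 replicate 1 it was 0.105, 0.118 and 0.11, and without NADIR_180 replicate 2 it was 0.0501, 0.0584 and 0.149. Without NADIR_180 replicate 1 or either CONS_180 replicate, Igfbp1 and Socs2 were not called (adjusted p from 0.0573 to 0.148), nor was Socs2 without either PEAK_140 replicate (0.0507 and 0.0516). In a fit of the 4 libraries compared it was 0.519, 0.533 and 0.75. Without a variance trend, Socs2 was not called (limma, adjusted p = 0.122). Each of the 3 genes kept its direction in these fits. The median of all genes was 0.15 higher at CONS_140 than in VEH, and with libraries centred on their median Cish was called as well (-3.60, adjusted p = 0.0407).

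Ghr had 4 region positions, and the region with the highest mean (chr2:53303884-53313884, rn6) was at 8.18 and 7.58 in VEH, 7.14 and 7.52 at PEAK_140, 7.08 and 7.25 at NADIR_180, 7.67 and 7.40 at CONS_140 and 7.28 and 7.47 at CONS_180, with no call (PEAK_140 -0.55, adjusted p = 0.999). The region at the 5′-most start (chr2:53403638-53413638), singled out after its values were seen, was at 8.19 and 7.64 in VEH, 5.68 and 6.16 at PEAK_140, 7.65 and 7.58 at NADIR_180, 7.72 and 6.98 at CONS_140 and 6.61 and 5.66 at CONS_180. Its PEAK_140 and CONS_180 libraries lay below the other 6. The PEAK_140 value was -1.99 (SE 0.42, adjusted p = 0.0564) and the CONS_180 value -1.78 (adjusted p = 0.221), neither of which passed. With libraries centred on their median, the PEAK_140 value passed (-1.91, adjusted p = 0.00949). Transcripts from several starts cannot be told apart in the RNA counts.

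Igfals was at 7.70 and 7.13 in VEH and between 5.83 and 7.51 in the CORT groups, and Igfbp3 at 4.58 and 3.96 in VEH and between 3.95 and 5.23. Igfbp4 varied between 10.10 and 11.07 over all 10 libraries. Socs3 was at 5.96 and 6.00 at NADIR_180 and between 4.73 and 5.41 in the other 8 libraries, with no call. Igfbp2 lay between -0.74 and -0.36 in every library, at the lower limit of the values.

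Against VEH no member was called at PEAK_140, NADIR_180 or CONS_180, where 0.954%, 0.00604% and 0.229% of all genes were called by limma. At an unadjusted p below 0.05 were 1, 2 and 2 members, against 804, 233 and 473 of all 16568 genes. With libraries centred on their median, Igfbp1 passed at PEAK_140 (1.32, adjusted p = 0.0137) and Igf1 at NADIR_180 (-1.93, adjusted p = 0.0338). The contrasts among CORT groups gave no member either. These were PEAK_140 against NADIR_180 (0.465% of all genes called), CONS_180 against CONS_140 (0.0%), PEAK_140 against CONS_140 (0.0181%) and CONS_180 against NADIR_180 (0.169%). The last was the test whether the change from peak to trough differed from the change of CONS over the same time (0.0543%). In this order, 3, 4, 3, 4 and 4 members had an unadjusted p below 0.05, against 898, 505, 1427, 386 and 1066 of all 16568 genes. After centring, Igf1 (1.6, adjusted p = 0.00863) and Igfbp1 (1.53, adjusted p = 0.00875) passed for PEAK_140 against NADIR_180, and Igf1 (2.11, adjusted p = 0.00628), Socs2 (4.05, adjusted p = 0.00969) and Cish (4.65, adjusted p = 0.0237) for PEAK_140 against CONS_140. Socs2 then also passed for CONS_180 against CONS_140 (4.21, adjusted p = 0.0225), and Igf1, Socs2 and Cish for the difference of the changes (adjusted p = 0.00292, 0.0148 and 0.0448).

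Same-numbered pSer2 Pol2 libraries deviated together in all 12 pairs that the 4 CORT groups give. With 2 libraries a group, the deviations of replicates 1 and 2 mirror each other. Each pair of groups thus gives the same r for both numbers, and the 12 pairs are not separate evidence. With the replicate number as a block, which could be fitted for the 8 CORT libraries only, 3 members exceeded CONS_140 at PEAK_140, Igf1 (1.88, adjusted p = 0.0384), Socs2 (3.82, adjusted p = 0.0325) and Cish (4.42, adjusted p = 0.0425), against 1.91% of all genes. Socs2 was also called for CONS_180 against CONS_140 (4.03, adjusted p = 0.0452, against 0.0121%) and for the difference of the changes (4.95, adjusted p = 0.0228, against 0.103%). Without the block, these adjusted p were 0.0711, 0.0749, 0.0983, 0.286 and 0.128. In a fit of the 8 CORT libraries without the block, a choice made after seeing the data, none was called (0.188, 0.209 and 0.255 at PEAK_140 against CONS_140).

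**Figure D3:**
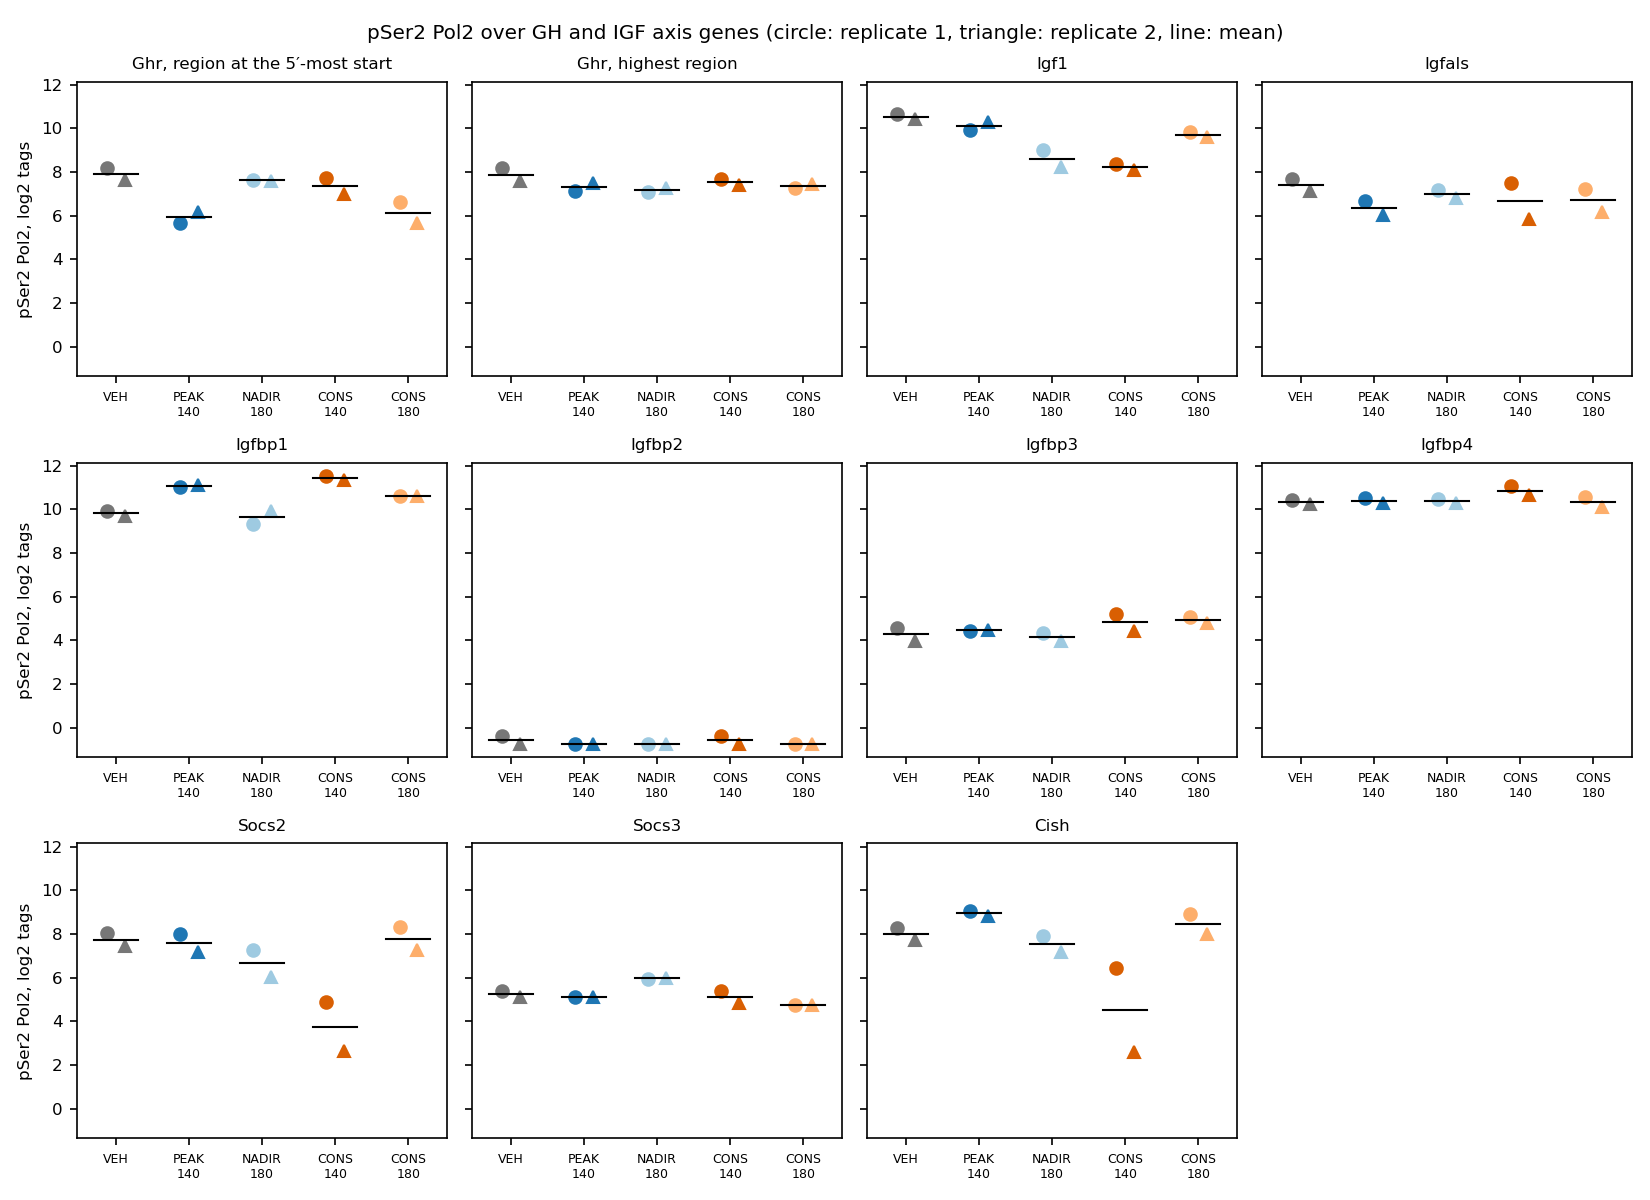
pSer2 Pol2 in log2 tags (vertical axis, shared) per library of the 10 genes, with Ghr given for 2 regions, in the 5 groups on the horizontal axis. Circles are replicate 1, triangles replicate 2 and lines the mean. Socs2 and Cish drop at CONS_140 (4.88 and 2.63, 6.44 and 2.62), while Igfbp1 is highest there.

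GR, the receptor of CORT, was measured as log2 tags over the 25 regions, whose values were drawn towards a floor near -1 where tags were few. At PEAK_140, 17 of 25 regions (68.0%) rose against VEH, compared with 78.6% of all 3981 regions that rose, and the median log2 fold change was 3.27 against 4.17 over all. CONS_140 and CONS_180 each gave 9 regions (36.0%), against 64.7% and 67.9%, and NADIR_180 gave 2, against 7.44%. No region was lowered. Since most regions of the series rose, centring each library on its median left 3 calls at PEAK_140, the Igf1 region at 37628 b, which was higher (3.01, adjusted p = 0.016), and 1 region each of Igfals and Igfbp4, which were lower. The rises given here are on the deposited scale, on which the median of all regions moved by 4.17 at PEAK_140. Without PEAK_140 replicate 1 there were 10 calls at PEAK_140, and without VEH replicate 2 there were 11. PEAK_140 exceeded NADIR_180 at 13 regions (against 68.8%) and CONS_180 exceeded NADIR_180 at 8 (against 49.6%). PEAK_140 and CONS_140 differed at none (against 0.0502%), and CONS_180 and CONS_140 at none (against 0.0%). For these 2 contrasts, 3 and 0 member regions had an unadjusted p below 0.05 (limma), against 560 and 194 of all 3981 regions. The log2 change from NADIR_180 to PEAK_140 and that from CONS_180 to CONS_140 differed at 9 regions (against 43.6%). This difference adds any rise in CONS to the fall in PULS, and at 2 of the 9 the fall itself was not called. These were the Socs2 region 2142 b before the TSS, with a PEAK_140 against NADIR_180 value of 2.75 (adjusted p = 0.0879) and a CONS_180 against CONS_140 value of 2.69 (adjusted p = 0.924), and the Cish region 107 b before the TSS, with 4.39 (adjusted p = 0.0567) and 3.16 (adjusted p = 0.924). No peak was called in VEH or at NADIR_180 by the authors at any of the 25 regions. Each region was therefore in the set for a peak at PEAK_140, CONS_140 or CONS_180. Rises of these groups against VEH or NADIR_180, and the difference of the changes, were thus in part built in by this selection.

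At Igf1, the region 37628 b after the TSS in an intron (chr7:28451666-28452291, rn6) was at -0.58 and -0.77 in VEH, 7.10 and 6.81 at PEAK_140, -0.51 and -0.33 at NADIR_180, 5.51 and 5.51 at CONS_140 and 6.14 and 5.25 at CONS_180. It was the region of the 25 with the largest rise at PEAK_140 (7.63, SE 0.52, adjusted p = 1.31e-05), and the trough did not differ from VEH (0.26, adjusted p = 0.924). The remaining 4 Igf1 regions rose at PEAK_140 by 2.79 to 3.13 and were called there. Of the 10 fits without 1 library, the call was lost in 6 for the region 1369 b before the TSS, in 5 for that at 35265 b after it and in 2 each for those at 24723 and 47181 b. The region at 35265 b gave 1.63 (adjusted p = 0.301) without VEH replicate 1, and those at 24723 and 47181 b gave 1.76 (adjusted p = 0.131) and 1.32 (adjusted p = 0.0976) without VEH replicate 2. With libraries centred on their median all 4 were negative and not called (-1.83 to -1.49).

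At Igfbp1, the region 5261 b before the TSS (chr14:87443119-87443744), which also lies within 50 kb of Igfbp3, was at 0.79 and -0.61 in VEH, 6.44 and 5.77 at PEAK_140, 2.93 and 2.26 at NADIR_180, 5.76 and 5.74 at CONS_140 and 5.25 and 5.53 at CONS_180. All CORT groups lay above VEH, NADIR_180 included (2.51, SE 0.58, adjusted p = 0.0323). Igfbp2, with 1 region 15821 b before its TSS, was the other gene with a rise at the trough (2.56, SE 0.56, adjusted p = 0.0237), from -0.64 and -0.82 in VEH to 1.97 and 1.70. Neither trough call was made in a fit of the 4 libraries compared or without VEH replicate 2.

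At Ghr, the region 863 b after the 5′-most TSS in an intron (chr2:53412462-53413087) was at -0.78 and -0.92 in VEH, 2.04 and 3.16 at PEAK_140, 1.39 and -0.57 at NADIR_180, 3.54 and 2.64 at CONS_140 and 3.40 and 3.26 at CONS_180. It rose at PEAK_140 (3.45, SE 0.82, adjusted p = 0.00445) and in both CONS groups. Igfbp4 rose at the region 3204 b after its TSS (3.70, SE 0.85, adjusted p = 0.00387), and Igfals at 857 b before (4.55, SE 1.51, adjusted p = 0.0207). The Igfals call was lost without VEH replicate 2 (2.77, adjusted p = 0.155) and without either PEAK_140 replicate (adjusted p = 0.0904 and 0.0674).

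At Cish, the region 107 b before the TSS was at 2.79 and -0.86 in VEH, 5.82 and 5.15 at PEAK_140, 2.63 and -0.43 at NADIR_180, 4.54 and -0.79 at CONS_140 and 5.76 and 4.31 at CONS_180. The second library was lower than the first in all 5 groups. It rose at PEAK_140 (4.52, SE 1.82, adjusted p = 0.0446), a call that was lost in 7 of 10 fits without 1 library (adjusted p = 0.266 without VEH replicate 2), and CONS_140 gave 0.91 (adjusted p = 0.666). Socs2, with 5 regions, rose most at 14859 b before the TSS (5.57, SE 1.06, adjusted p = 0.00145), where the values were 0.74 and 0.51 in VEH and 6.63 and 5.75 at PEAK_140. No GR region lay within 50 kb of Socs3.

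Of the 25 regions, 11 were below 0 in the second CONS_140 library and 1 in the first, and 8 and 19 in the 2 VEH libraries. The depth of the second CONS_140 library, 3663062 GR tags, was below the 6715803 of the first. In VEH the second library, with more regions below 0, was the deeper one (3902296 against 3236498 tags). The PEAK_140 libraries held 2568317 and 2051977 tags, with 1 and 3 regions below 0. The part of depth in these values was not tested. In pSer2 Pol2, separate CONS_140 libraries held 9326927 and 8923921 tags. There the second was the lower one for every member in the region used, and not for Socs2 and Cish alone. Igfals, for example, was at 7.51 and 5.83 and Ghr at 7.67 and 7.40.

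**Figure D4:**
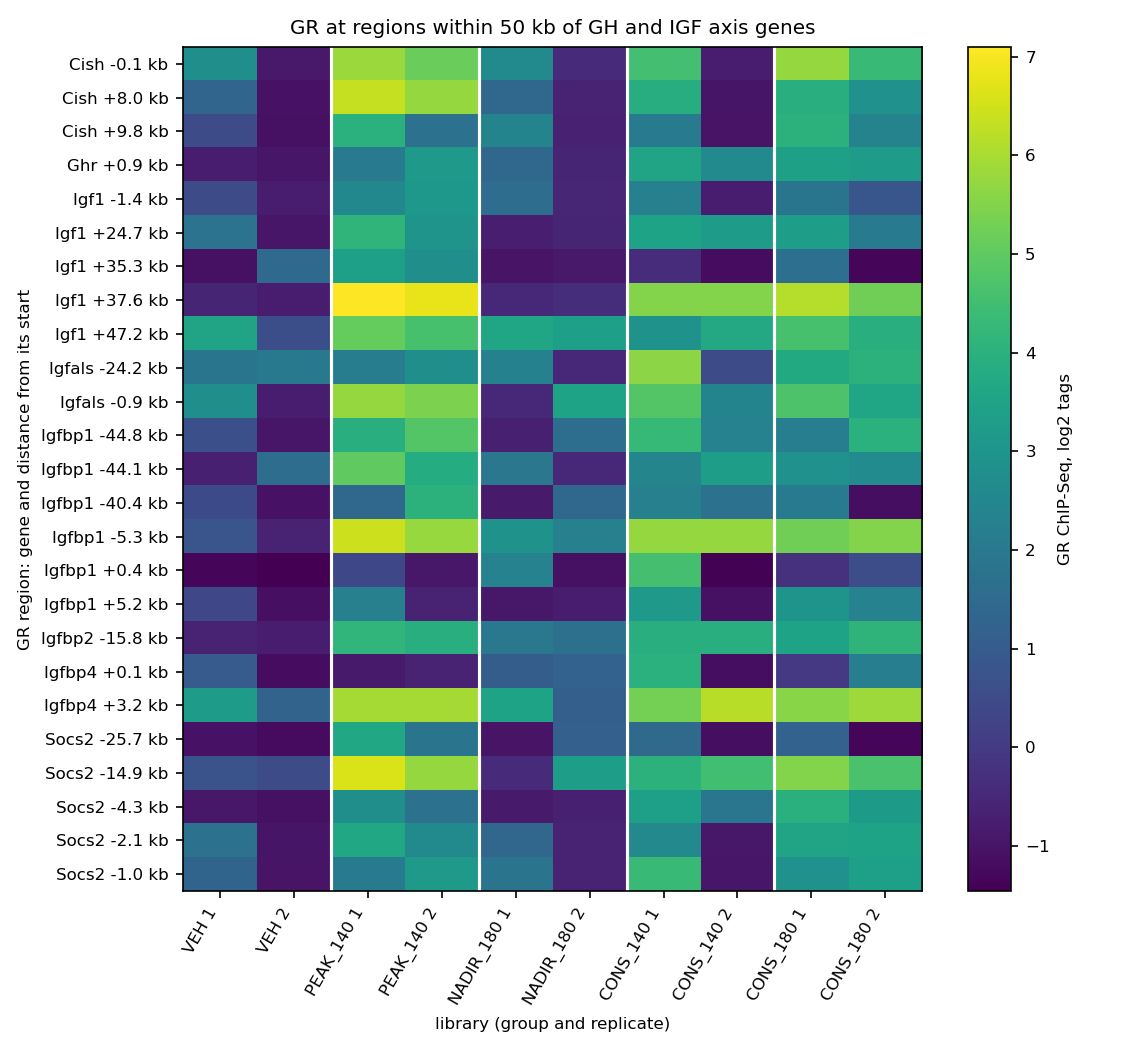
GR ChIP-Seq in log2 tags (colour) for the 25 regions (rows, named by gene and distance from its start in kb) in the 10 libraries (columns, groups parted by white lines). The 3 regions shared with Igfbp3 are shown under Igfbp1. Most regions are brighter at PEAK_140 than in VEH, with the second CONS_140 library dark at 11 regions.

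The genes around the axis were taken from 3 lists. Of 17 genes of GH receptor signalling with RNA, 1 rose in CONS (against 4.45% of all genes), 1 fell in PULS (against 2.44%), and between the CORT groups 2 were higher and 1 lower in CONS (against 0.617% and 0.27%), while falls in CONS are not counted here. Irs1 and Irs2, adaptors of insulin and IGF1 receptors, were among them. Irs1 fell in PULS (-1.0, SE 0.23, adjusted p = 0.0195) and was higher in CONS CORT than in PULS CORT (1.16, adjusted p = 0.0248). Irs2 rose in CONS (1.02, SE 0.32, adjusted p = 0.0478) and was also higher in CONS CORT than in PULS CORT (1.70, adjusted p = 0.0311). Prlr, the prolactin receptor, was lower in CONS CORT than in PULS CORT (-3.42, SE 0.68, adjusted p = 0.0244), its 3 PULS CORT libraries ranging from 15.4 to 196 CPM. Stat5b, the main STAT of this pathway in liver, had a log2 fold change of -0.45 (SE 0.11, adjusted p = 0.0105) in CONS, short of 1.5-fold, and Jak2 passed no test. None of the 18 genes of this list was called for pSer2 Pol2, where at most 0.954% of all genes were called in a contrast.

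Of the 12 genes of the IGF system list, 7 were measured in RNA and 7 in pSer2 Pol2, and none was called in either (edgeR and limma). Of all genes, at most 9.2% were called in an RNA contrast and 0.954% in a pSer2 Pol2 contrast. With 7 genes, no call does not set the list apart from other genes. Of 9 measured genes that GH is known to control in liver, 4 fell in CONS, against 4.75% of all genes, and their 9 log2 fold changes had a median of -0.65, against -0.01 over all genes. All 4 were cytochromes of the Cyp2c family, which share sequence so that counts may be split between them. Cyp2c12 fell by 1.15 on the log2 scale (adjusted p = 0.00267), Cyp2c13 by 0.80 (adjusted p = 0.00156), Cyp2c7 by 0.76 (adjusted p = 0.0476) and Cyp2c11 by 0.65 (adjusted p = 0.0157). None was called in PULS, where 2.44% of all genes were lowered. No gene of this list passed the test of the difference between the responses, against 0.0284% of all genes. The list was not split by the direction in which GH acts on a gene, so its median does not measure GH action. Of the genes not called, mean CPM was higher in CONS CORT than in CONS VEH for Cyp4a2 (200 against 129), Onecut1 (23.7 against 9.12) and Cux2 (4.05 against 3.79). It was lower for Srd5a1 (23.8 against 45.6) and Bcl6 (59.9 against 83.7). In pSer2 Pol2, Cyp2c12 and Cyp2c13 were lower at PEAK_140 (-2.17, adjusted p = 0.0232, and -2.51, adjusted p = 0.0065) and Cyp2c12 also at CONS_140 (-2.06, adjusted p = 0.0359), against 0.585% and 0.169% of all genes lowered there.

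The genes whose RNA was most like a called member over the 12 libraries, by Pearson r of log2 CPM, were Gk, Cxcl12 and AABR07021840.1 for Ghr (r 0.955 to 0.974), Ctsc, S1pr1 and Mbip for Igfals (0.903 to 0.945), Upp2, LOC103690028 and Spsb4 for Igfbp1 (0.963 to 0.978) and AABR07051507.1, Acsl4 and Ablim3 for Igfbp3 (0.92 to 0.939). The libraries share the 4 groups, so these values also carry the differences between groups.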

How the data were processed

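Chromatin for ChIP-Seq and total RNA came from rat liver. Per the labels and the study's methods, the authors trimmed ChIP reads (Trimmomatic 0.36), aligned them to rn6, removed duplicates and subtracted input with HOMER 4.9.1, and deposited the tags as log2 values. The methods relate GR tags to those inside binding regions and pSer2 Pol2 tags to all tags, while the header of the deposited GR table names a scaling to total tags. RNA was deposited by the authors as read counts per Ensembl gene (STAR, featureCounts 1.6.2), over exons per the methods. A deposited word marks the GR regions with a peak in each group. Tables of the authors' own comparisons hold fold changes and p-values, and were not used.

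Genes summing to over 10 reads across the RNA libraries were kept, and their counts tested with edgeR 4.0.16 (quasi-likelihood, TMM) in R 4.3.3 and with DESeq2 1.42.0 as an alternative, and log2 values with limma 3.58.1 (variance trend), each fit holding all groups of an assay. A call was an adjusted p (Benjamini-Hochberg over all features) below 0.05 and a change over 1.5-fold. The scripts were tested on simulated data with planted log2 changes. For changes of 1 to 2, the RNA fit recovered 83% and the pSer2 Pol2 fit 0%. The pSer2 Pol2 fit recovered 75% of changes of 2 to 4, and the GR fit 48% of changes of 3 to 5. Changes of such sizes in ChIP-Seq could therefore go uncalled. Only a small part of the features was changed in each simulation, whereas most GR regions rose in the data. The share recovered for GR may thus not carry over. In RNA and pSer2 Pol2, changes were planted only at features above a lower limit of the mean. Igfbp2, Igfbp3 and Socs3 lay below that limit in pSer2 Pol2. The region with the highest mean stood for a gene in pSer2 Pol2. Named genes were the 10 members, called genes of the pathway lists and, for members called in RNA, the 3 genes of highest Pearson r among those with a mean of at least 5 CPM. Members and lists were chosen with earlier results of these data known. Same-numbered pSer2 Pol2 libraries deviated together (r 0.157 to 0.458, 12 of 12 pairs over 0.1). Each pair of groups gives the same r for both numbers, so the 12 pairs hold each value again. The replicate numbers were taken as pairs on these values. What the number marks is not stated. A result for 1 gene of the pathway lists is not reported here.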

Additional observations from a re-analysis of the deposited data

Results flagged for a closer look

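The log2 change in GR between NADIR_180 and PEAK_140 differed from that between CONS_180 and CONS_140 at 9 of 25 regions, by a direct test of this difference (limma, adjusted p below 0.05 and over 1.5-fold), against 43.6% of all 3981 regions. The difference adds any rise in CONS to the fall from peak to trough. The regions were in the set for a peak in a CORT group and had none at NADIR_180, so it was in part built in by selection. It was 7.56 at Igf1, 37628 b after the TSS, and 5.0 at 35265 b. It was 7.54 and 7.58 at the Cish regions 107 b before and 7997 b after the TSS. For Socs2 it was 5.54, 4.0 and 5.44 at 14859, 4307 and 2142 b before the TSS. The fall from peak to trough was itself not called at the Socs2 region at 2142 b (2.75, adjusted p = 0.0879) and the Cish region at 107 b (4.39, adjusted p = 0.0567), and without CONS_140 replicate 2 the differences there were 3.71 and 4.88. The difference was 3.61 at Igfbp4, 3204 b after the TSS, and 3.15 at the region shared by Igfbp1 and Igfbp3. None was called with libraries centred on their median, and 1 was called without PEAK_140 replicate 1 or without CONS_180 replicate 1. There were 4 calls without PEAK_140 replicate 2, and 3 without CONS_140 replicate 2 or CONS_180 replicate 2.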

How the results depend on the processing

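With 2 libraries a group in ChIP-Seq and 3 in RNA, calls rested on few samples. RNA calls numbered 2 for the difference between responses and 2 in PULS without the low-count filter. Without 1 library they ranged from 0 to 1 and 1 to 2, and from 1 to 2 between the CORT groups. PULS values then ranged from -0.004 to 0.39 for Socs2, -0.16 to 0.13 for Igfals, -0.63 to 0.0466 for Igfbp2, -0.63 to 0.26 for Igf1 and -2.33 to 1.57 for Cish, and the CONS value of Socs2 from -0.22 to 1.23. For pSer2 Pol2, centring on the median gave 1 call for CONS_180 against CONS_140, 1 for CONS_180 against NADIR_180, 1 for NADIR_180, 3 for PEAK_140 against CONS_140, 2 for PEAK_140 against NADIR_180, 1 for PEAK_140 and 3 for the difference of changes, and turned Ghr to 0.0201 and 0.0251 for CONS_180 and PEAK_140 against CONS_140. Without a variance trend PEAK_140 against NADIR_180 gave 1 and Socs2 lost its call at CONS_140. A fit of the compared libraries gave 0 at CONS_140. With the longest region, Ghr was -0.96 for PEAK_140 against NADIR_180, -0.0678 for CONS_180 against NADIR_180 and -1.0 for the difference of changes. Without 1 library, calls ranged from 0 to 3 at CONS_140, 0 to 1 for PEAK_140 against NADIR_180, 0 to 4 for CONS_180 against CONS_140, 0 to 3 for PEAK_140 against CONS_140 and 0 to 4 for the difference of changes, the highest 3 of these without CONS_140 replicate 2. Socs2 ranged from -0.59 to 0.25 at PEAK_140 and -0.48 to 0.57 at CONS_180, Igfbp1 from -0.49 to 0.11 at NADIR_180, and Ghr from -0.0265 to 0.35 for PEAK_140 against NADIR_180 and -0.18 to 0.19 for the difference of changes.

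With the replicate block, pSer2 Pol2 calls were 1 for CONS_180 against CONS_140, 3 for PEAK_140 against CONS_140 and 1 for the difference of changes. GR and RNA libraries shared only a number (r from -0.0265 to 0.0718 and -0.114 to 0.146). There the block gave 13 GR calls for CONS_180 against NADIR_180 and moved Igfals in PULS to -0.0012.

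GR calls after centring were 2 at CONS_140, 0 at CONS_180, 0 at NADIR_180, 3 at PEAK_140, 1 for PEAK_140 against NADIR_180, 0 for CONS_180 against NADIR_180 and 0 for the difference of changes. At PEAK_140 the centred values were -1.68, -1.83, -1.49 and -1.71 for Igf1, -1.17 for Ghr, -0.0636 and -4.06 for Igfals, -1.61, -0.64, -0.0943, -3.40 and -3.48 for Igfbp1, -0.91 for Igfbp4, -1.34, -2.16, -0.74 and -1.87 for Socs2 and -1.46 and -0.0959 for Cish, and the difference of changes at the shared Igfbp1 region was -0.24. NADIR_180 gave 1 call without a variance trend and 0 in the compared libraries. Within 20 kb there were 10 calls at PEAK_140 and 8 for PEAK_140 against NADIR_180. Within 100 kb there were 14 at CONS_140, 15 at CONS_180, 13 for CONS_180 against NADIR_180 and 14 for the difference of changes. Without 1 library, calls ranged from 0 to 2 at NADIR_180, 10 to 18 at PEAK_140, 7 to 14 at CONS_180, 7 to 16 for PEAK_140 against NADIR_180, 0 to 1 for PEAK_140 against CONS_140, 4 to 13 for CONS_180 against NADIR_180 and 1 to 13 for the difference of changes. PEAK_140 values ranged from -1.75 to 0.43 at the Igfbp4 start and -0.22 to 2.65 at the Igfbp1 end. Causes were not tested.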
